A study of Mus musculus with 12 samples.

Results

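The genes of the synapse were followed across 4 groups of mouse neural cells, as 37 members named by their roles at the synapse and found in the deposited count table by matching Ensembl gene identifiers to symbols. All 37 were among the 45706 genes of the table. There were 16 presynaptic members, which comprised 9 genes of synaptic vesicles and their release, 5 of transmitter synthesis and loading and 2 neurexins. The 21 postsynaptic members comprised 4 subunits each of the AMPA, NMDA and GABA-A receptors, 2 of the kainate receptors, 3 neuroligins and 4 scaffolds. The members were listed by gene role.

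At a chemical synapse, vesicles in the axon terminal are filled with transmitter by transporters, dock through SNARE proteins and fuse when synaptotagmins bind calcium. Glutamate acts on AMPA, NMDA and kainate receptors and GABA on GABA-A receptors across the cleft. Neurexins on the terminal bind neuroligins on the postsynaptic side, where scaffolds such as PSD-95 and the Shank proteins hold receptors in place. Many of these genes are silenced outside neurons by REST, a repressor that binds the RE1 element, and several are also used by glial progenitors, which carry receptors for glutamate and GABA.

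All cells derived from embryonic stem cells of the C57BL/6 strain with a heterozygous knock-in of GFP at *Sox1*, a transcription factor of early neural stem cells, and every group had 3 libraries made on different days. Baseline were glial progenitors labelled as *Sox1* negative and as not sorted. Sox1posGP were sorted, *Sox1* positive cells of that kind, in which guide RNAs direct the activator dCas9-VP64 to the *Sox1* promoter. NSC were neuroepithelial cells that were not sorted, and NR were such cells sorted for GFP and labelled as neural rosettes, and guides are not described for either group. Each dCas9-VP64 line is clonal, and the study describes its reporter progenitors as carrying dCas9-VP64 stably, while the labels do not name the activator or the line for any library. The labels give Baseline as not sorted, whereas the text of the study describes sorting for both progenitor groups.

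Levels are given as CPM, library counts scaled to a common total with TMM factors. Libraries held 4939268 to 18351483 counts in Baseline, 3407066 to 6315574 in Sox1posGP, 29046205 to 43095688 in NSC and 16707006 to 34594885 in NR, so low genes were measured least precisely in Sox1posGP. Counting error alone sets a floor of 3 counts over the group, which was 0.104 CPM in Baseline, 0.19 in Sox1posGP, 0.0282 in NSC and 0.0362 in NR. *Sox1*, the targeted gene, stood at 4.83, 6 and 5.43 CPM in Baseline and at 20.3, 20.9 and 21.7 CPM in Sox1posGP, in the direction of the labels. It stood at 48.6, 64.9 and 51.8 CPM in NSC and at 4.62, 20 and 19.2 CPM in NR, where replicate 1 lay below all Baseline libraries.

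Lists of cell type markers also set the groups apart. The 8 neural progenitor markers summed to 1889 to 1996 CPM in Baseline and 1572 to 1637 in Sox1posGP. Their sums were 2509 to 2735 CPM in NSC and 867 to 1484 in NR. Against Baseline 6 were higher and 2 lower in NSC, and 3 higher and 5 lower in NR. In Sox1posGP *Nes* was higher (log2 fold change 1.34) and *Sox2*, *Fabp7* and *Pax6* were lower (-1.80, -1.10 and -0.78). The 6 markers of pluripotent cells summed to 1408 to 2694 CPM in NR against 46.5 to 144 in NSC and 6.47 to 9.34 in the progenitor groups, which goes against the label of rosettes sorted for GFP. The 6 markers of mesenchyme and neural crest summed to 494 to 3086 CPM in NR and 426 to 1150 in NSC, against 31.7 to 36.6 in the progenitor groups, with *Col1a1* as most of the sum in NSC (381 to 1084 CPM) and NR (413 to 2985 CPM). The 10 neuron markers summed to 497 to 524 CPM in Baseline, 444 to 458 in Sox1posGP, 996 to 1271 in NSC and 561 to 857 in NR, and none was at 0 in any group. *Map2* alone made up 454 to 480 CPM of the Baseline sum and fell in NSC and NR, with log2 fold changes of -2.37 and -3.60, whereas 8 of the 10 were higher in each, and 1, *Dcx*, in Sox1posGP. Astroglial markers (8 genes) summed to 3227 to 3541 CPM in Baseline, 1613 to 1698 in Sox1posGP, 296 to 352 in NSC and 208 to 273 in NR. *Slc1a3* (2468 to 2774 CPM) and *Aldoc* (638 to 641 CPM) made up most of the Baseline sum, and against Baseline 3 of the 8 were higher and 4 lower in NSC and 3 higher and 5 lower in NR. In Sox1posGP those 2 were lower and *Aqp4* and *Aldh1l1* higher, with log2 fold changes of -1.14, -0.88, 3.22 and 1.59. The 8 markers of the oligodendrocyte lineage summed to 2405 to 2533 CPM in Baseline, 1628 to 1761 in Sox1posGP, 66.2 to 84.8 in NSC and 49.3 to 54.1 in NR, with *Sox10* at 0 in the progenitor groups. *Olig1* (1735 to 1794 CPM) and *Olig2* (650 to 728 CPM) made up most of the Baseline sum, and of the 6 tested 3 were higher and 2 lower in each of NSC and NR, and 3 were lower in Sox1posGP. The 4 endothelial markers summed to 74.8 to 133 CPM in NR and 7.25 to 11.1 in NSC. In the progenitor groups that sum was 0.417 to 3.3 CPM. All 4 were higher in NSC and in NR than in Baseline, and 1, *Tek*, in Sox1posGP. The 4 microglial markers summed to at most 0.421 CPM in any library. *Cdh5*, *Cx3cr1* and *Tyrobp* were at 0 in the progenitor groups and *Aif1* in Sox1posGP alone. The part of these cell mixtures in the results below was not tested, and in bulk RNA fewer cells of a type cannot be told apart from less RNA per cell.

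**Figure D1:**
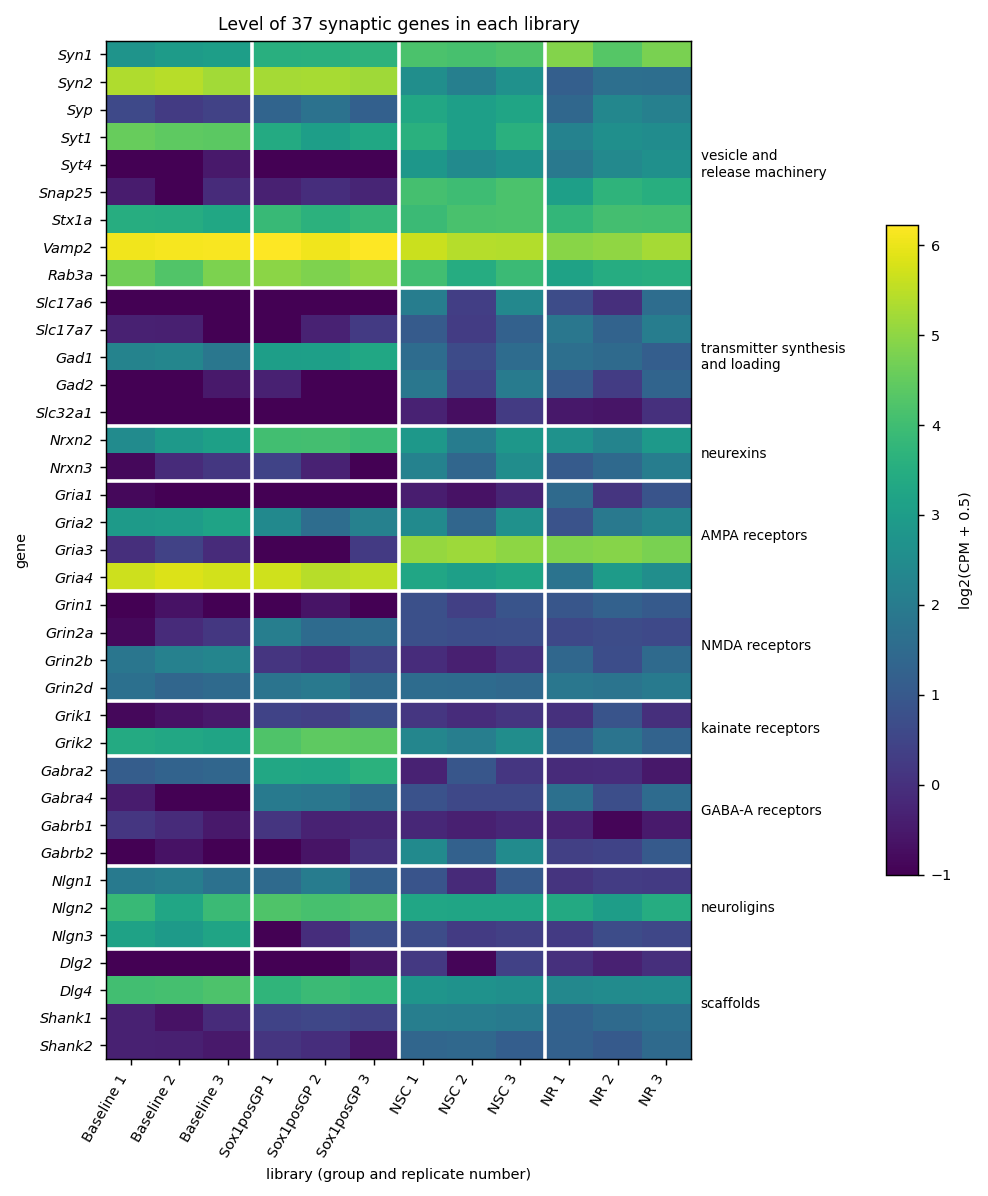
Level of each of the 37 synaptic genes (rows, ordered by class) in each of the 12 libraries (columns, 3 per group) as log2(CPM + 0.5), with white lines between groups and classes. *Gria4* and *Syn2* are bright in Baseline and Sox1posGP and dim in NSC and NR, and *Gria3* and *Snap25* have the opposite pattern.

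Many members lay at the edge of detection in the progenitor groups. In Baseline 11 members had 3 counts or fewer in every library and in Sox1posGP 12 did, of which 3 and 4 had no count in any library, whereas no member was that low in NSC or NR. Members with at least 10 counts in every library numbered 18 in Baseline, 17 in Sox1posGP, 32 in NSC and 31 in NR, and the deeper libraries of NSC and NR contribute to that difference. Per kilobase of exon, the most abundant member in every group was *Vamp2*, the vesicle SNARE synaptobrevin, at 18.1 CPM per kb in Baseline (SD 0.483, n = 3), 18.7 in Sox1posGP (SD 1.08), 11.7 in NSC (SD 1.09) and 8.71 in NR (SD 1.07). In Baseline *Rab3a*, a vesicle GTPase, followed at 10.6 CPM per kb (SD 1.96) and *Gria4*, an AMPA receptor subunit, at 8.44 (SD 0.541), and the spreads of these 2 met. In NR the second level was that of *Syn1*, a synapsin that tethers vesicles, at 7.59 CPM per kb (SD 1.49), and its spread met that of *Vamp2*.

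Promoters were read for the RE1 element, because REST itself was measured in all libraries. *Rest* stood at 58.6 to 64.2 CPM in Baseline, 77.3 to 88.4 in Sox1posGP, 102 to 110 in NSC and 245 to 317 in NR. Of the 37 members, 25 matched RefSeq promoter windows (GRCm38.p6), and the 250 bases before each of their 39 starts were searched on both strands for the RE1 consensus with at most 1 mismatch. Matches lay in 3 of 39 member windows, those of *Gria2*, *Syn1* and *Gad2*, and in 0.788% of all 32851 windows. With no mismatch allowed, 1 member window matched, that of *Gria2*, against 0.0578% of all windows. These 3 stretches are shown because they carry the matches, which are in capitals, and are trimmed to bases outside annotated exons.
Gria2 (chr3:80802836-80803085, minus strand): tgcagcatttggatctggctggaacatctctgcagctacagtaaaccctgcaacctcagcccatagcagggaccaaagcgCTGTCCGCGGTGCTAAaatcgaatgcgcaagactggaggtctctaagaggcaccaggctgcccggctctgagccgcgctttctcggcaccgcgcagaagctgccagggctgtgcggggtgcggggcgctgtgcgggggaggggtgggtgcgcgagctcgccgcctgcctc
Syn1 (chrX:20921005-20921168, minus strand): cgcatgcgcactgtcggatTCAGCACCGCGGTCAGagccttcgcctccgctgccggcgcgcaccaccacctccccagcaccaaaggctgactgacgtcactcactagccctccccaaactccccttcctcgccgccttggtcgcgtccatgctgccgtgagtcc
Gad2 (chr2:22622077-22622204, plus strand): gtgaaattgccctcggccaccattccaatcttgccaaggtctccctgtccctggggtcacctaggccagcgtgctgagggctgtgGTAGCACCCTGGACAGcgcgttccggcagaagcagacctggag
The match lay 170 to 155 bases before the *Gria2* start on the strand opposite to the gene, 231 to 216 bases before the *Syn1* start and 165 to 150 bases before the *Gad2* start, the last 2 on the strand of the gene. The hexamer AACAAT, a core that SOX proteins bind, lay on either strand in 1 member window, that of *Gabrb1*, and in 9.42% of all windows. A match is a description of letters and not a measured site.

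The first comparison asked which synaptic genes differed between Sox1posGP and Baseline. Of 34 members that could be tested, 12 were higher (in edgeR's quasi-likelihood test at an adjusted p under 0.1, where 21.6% of all 17003 genes tested were higher) and 4 were lower (where 22.7% were lower). The 12 were *Syn1*, *Syp*, *Stx1a*, *Gad1*, *Nrxn2*, *Grin2a*, *Grik1*, *Grik2*, *Gabra2*, *Gabra4*, *Nlgn2* and *Shank1*, and the 4 were *Syt1*, *Gria2*, *Grin2b* and *Nlgn3*. By side, 5 presynaptic members were higher and 1 lower, and 7 postsynaptic members were higher and 3 lower. The median log2 fold change of the tested members was 0.41 against 0.00 over all genes tested. It was 0.46 over 29 members, without those at the floor in both groups and the untested *Gabrb1*. There, members with 1 to 3 counts in 1 group entered at their count ratio. *Slc32a1*, *Gabrb1* and *Dlg2* did not pass the filter on low counts, and 15 of the 34 had fewer than 10 counts in every Baseline library, so that no count or median over the 34 stands for the whole list.

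**Figure D2:**
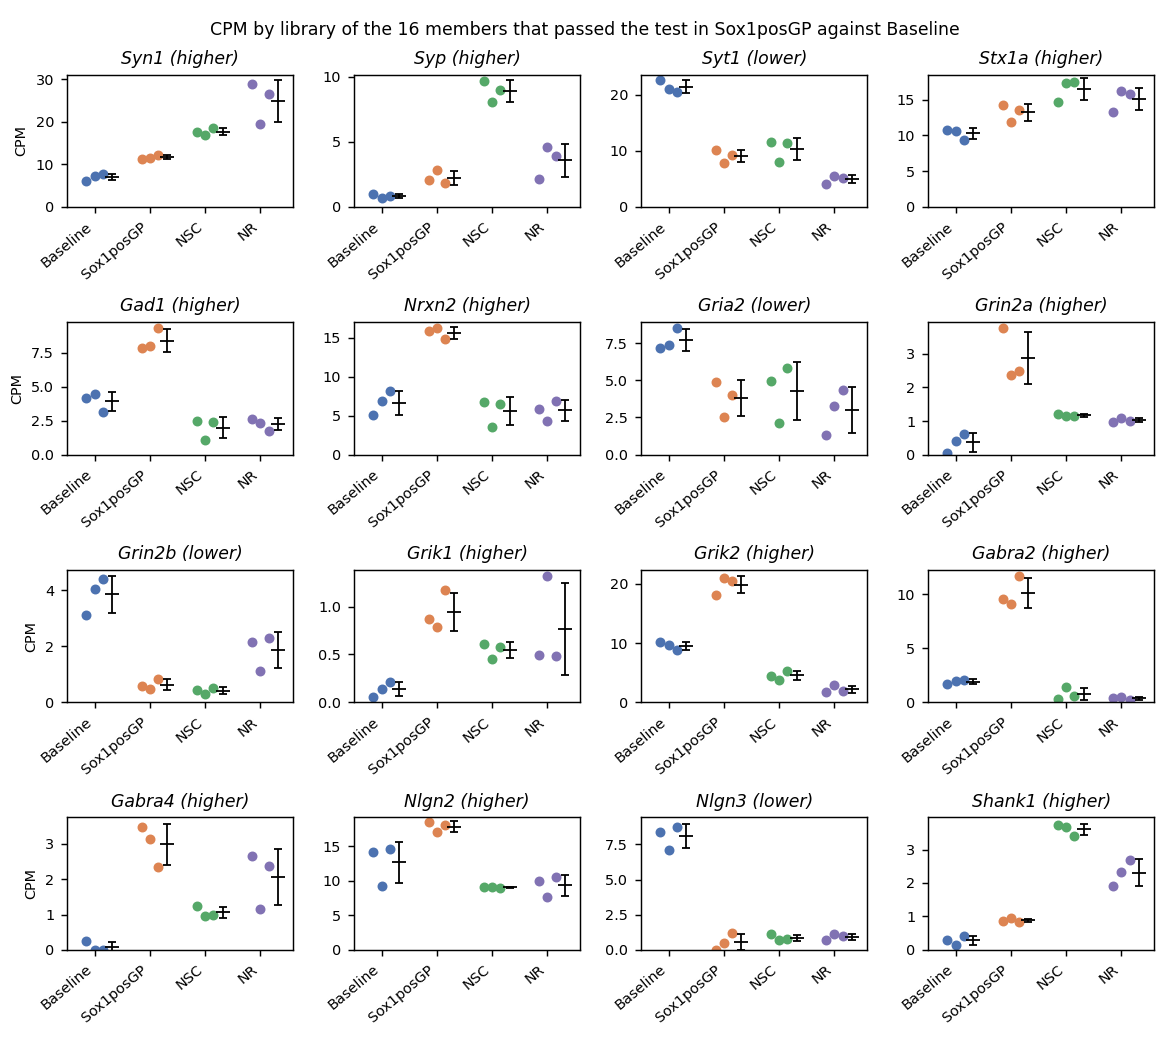
CPM (vertical axis, starting at 0) of the 16 members past the threshold in Sox1posGP against Baseline, with 1 point per library in each of the 4 groups and the mean with its SD (n = 3) in black beside them. No Sox1posGP point of a panel lies within the range of the Baseline points, and the *Nlgn3* points lie between 0 and 1.17 CPM in Sox1posGP against 7.12 to 8.77 in Baseline.

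Among the 9 members of vesicles and release, *Syp* rose and *Syt1* fell in Sox1posGP by the most. *Syp*, the vesicle membrane protein synaptophysin, stood at 1.01, 0.698 and 0.835 CPM in Baseline and at 2.03, 2.83 and 1.83 CPM in Sox1posGP, a log2 fold change of 1.35 (SE 0.39, adjusted p = 0.0142). *Syt1*, the calcium sensor of fast release, stood at 22.7, 21.1 and 20.5 CPM in Baseline and at 10.1, 7.85 and 9.34 CPM in Sox1posGP, a log2 fold change of -1.25 (SE 0.19, adjusted p = 0.000175). The groups did not overlap for either gene. *Syn1* stood at 6.15, 7.25 and 7.72 CPM in Baseline and at 11.3, 11.5 and 12.3 CPM in Sox1posGP, a log2 fold change of 0.76 (SE 0.18, adjusted p = 0.00418). *Stx1a*, the plasma membrane SNARE syntaxin 1A, stood at 10.8, 10.6 and 9.39 CPM in Baseline and at 14.2, 11.9 and 13.5 CPM in Sox1posGP, a log2 fold change of 0.35 (SE 0.15, adjusted p = 0.0929), a call lost in 11 of 20 alternatives, among them the omission of any Baseline replicate, Sox1posGP replicate 1 or 3, NSC replicate 3 and NR replicate 2 or 3, with adjusted p between 0.029 and 0.35. Its groups lay apart by less than the range within Sox1posGP.

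The other 5 vesicle members did not pass the threshold in Sox1posGP. *Vamp2* had a log2 fold change of 0.05 (SE 0.11, adjusted p = 0.782), *Syn2* of -0.11 (SE 0.16, adjusted p = 0.655) and *Rab3a* of 0.36 (SE 0.18, adjusted p = 0.147). The *Rab3a* groups did not overlap (18.8 to 27.3 CPM in Baseline and 28.1 to 32 in Sox1posGP), and it passed in 4 of 20 alternatives, among them the replicate block (adjusted p = 0.0988) and the omission of NSC replicate 2 (adjusted p = 0.0752), with adjusted p between 0.00861 and 0.478. *Snap25*, the SNARE partner of syntaxin, ranged from 0 to 0.417 CPM in Baseline and from 0.29 to 0.471 in Sox1posGP. *Syt4*, a synaptotagmin of dense-core vesicles, had 1 count in all of Baseline and 0 in Sox1posGP.

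In NSC and in NR 5 of the 9 members of this class were higher and 4 lower than in Baseline. Over all classes, 18 members were higher in NSC than in Baseline (44.4% of all genes tested were higher) and 14 were lower (33.7% were lower), and 18 were higher in NR than in Baseline (45.6% were higher) and 14 lower (34.1% were lower). These comparisons share the Baseline libraries. By side, each had 9 presynaptic members higher and 5 lower and 9 postsynaptic members higher and 9 lower, and *Nrxn2* and *Grin2d* did not pass in either. The median log2 fold change of the tested members was 1.01 in NSC and 1.20 in NR against 0.20 and 0.19 over all genes tested. It was 1.60 and 1.72 over 36 members, with the untested *Slc32a1* and *Dlg2* added. There, members with no Baseline count entered at their lower bound and those with 1 to 3 at their count ratio. Of the 34 tested, 15 had fewer than 10 counts in every Baseline library and passed the filter through other groups. Each of these was higher in NSC and in NR. The counts and medians here thus lean to rises through the filter and do not stand for the whole list.

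**Figure D3:**
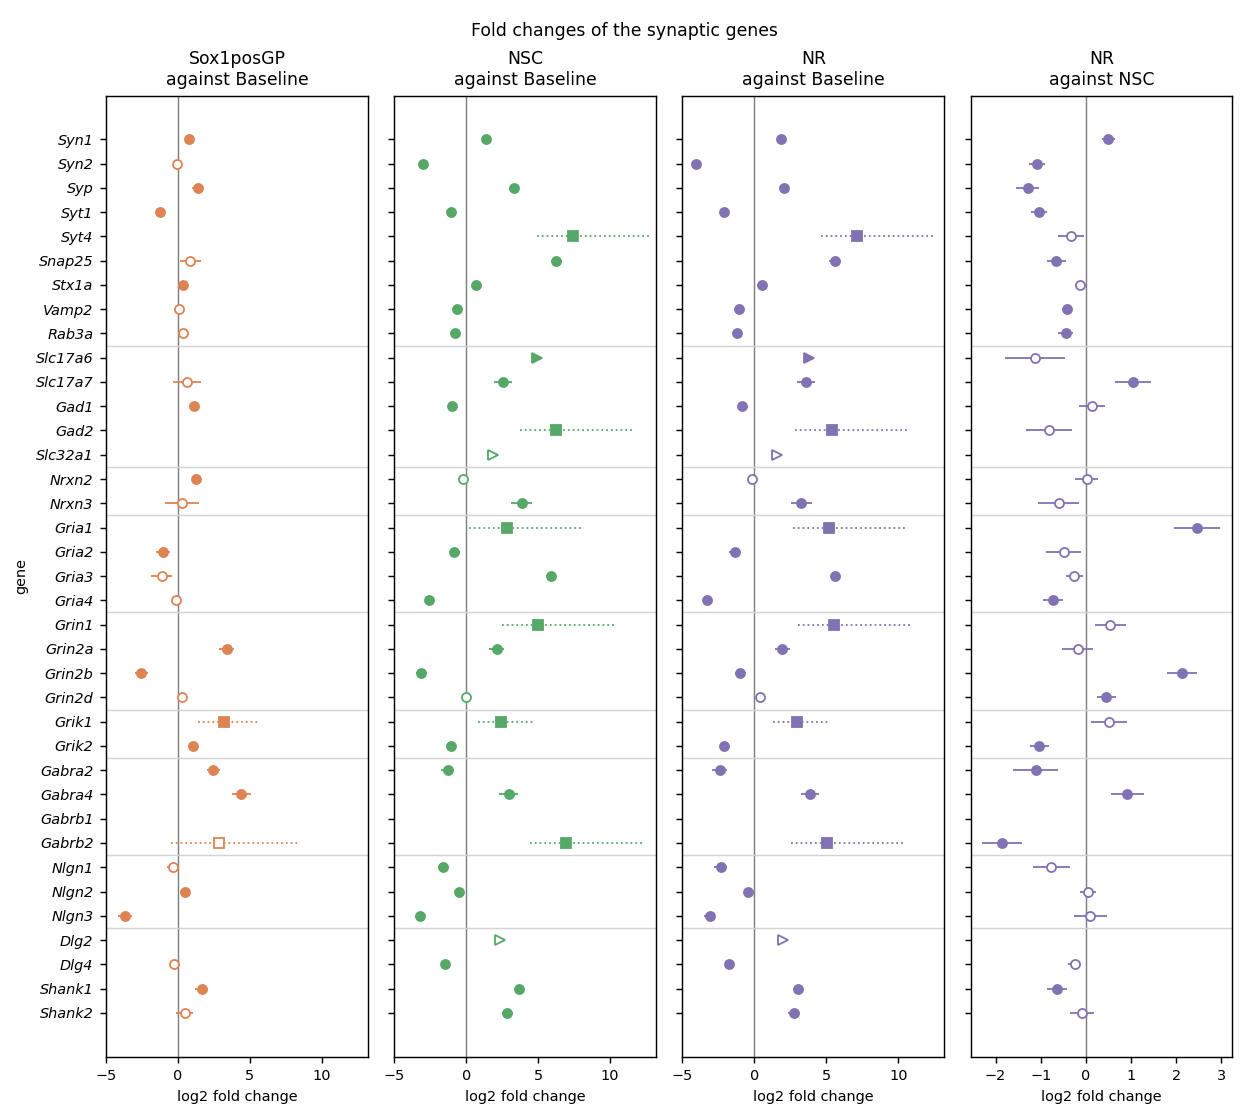
Log2 fold change of each synaptic gene (rows, ordered by class with grey lines between classes) in 4 comparisons, where filled symbols passed the threshold and open ones did not. Circles are edgeR estimates with their SE, squares with dotted lines are count ratios with exact 95% intervals for genes with 1 to 3 counts in 1 group, and triangles are lower bounds against a group with no count, and genes at the floor in both groups or not tested in a comparison with counts in both have no symbol. *Syn2*, *Gria4* and *Nlgn3* lie far to the left in NSC and NR and *Snap25* and *Gria3* far to the right.

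*Snap25* and *Syt4* rose by the largest amounts among the vesicle members. *Syt4* stood at 6.55, 4.97 and 5.88 CPM in NSC and at 3.26, 4.77 and 5.68 CPM in NR, against 0, 0 and 0.209 in Baseline. The ratio of CPM pooled over the group to that of the single Baseline count was 170 in NSC (exact 95% counting interval 30.4 to 6722, adjusted p of the edgeR fit 9.72e-07) and 140 in NR (24.9 to 5532, adjusted p = 1.66e-06). *Snap25* ranged from 15.4 to 17.6 CPM in NSC and from 7.88 to 12.4 in NR, with log2 fold changes over Baseline of 6.26 (SE 0.38, adjusted p = 4.58e-09) and 5.61 (SE 0.39, adjusted p = 1.6e-08). *Syp* stood at 9.64, 8.01 and 8.99 CPM in NSC and at 2.16, 4.61 and 3.93 CPM in NR, with log2 fold changes of 3.32 (SE 0.32) and 2.03 (SE 0.33), adjusted p 5.64e-07 and 7.6e-05. *Syn1* was higher by 1.35 in NSC and by 1.85 in NR, and *Stx1a* by 0.67 and 0.55, on the log2 scale. Libraries of NSC and NR lay above all 3 Baseline libraries for each of these 5 genes.

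The other 4 vesicle members were lower in NSC and NR than in Baseline. *Syn2*, a second synapsin, ranged from 36.7 to 43.1 CPM in Baseline, from 3.87 to 5.85 in NSC and from 1.79 to 2.61 in NR, with log2 fold changes of -2.99 (SE 0.17, adjusted p = 2.33e-09) and -4.08 (SE 0.18, adjusted p = 2.61e-10). Thus *Syn1* and *Syn2*, paralogs that both bind vesicles, moved in opposite directions. *Syt1* had log2 fold changes of -1.05 in NSC and -2.09 in NR, *Vamp2* of -0.63 and -1.05, and *Rab3a* of -0.78 and -1.23. Summed over the 9 genes, Baseline libraries held 171 to 174 CPM, Sox1posGP 167 to 180, NSC 128 to 147 and NR 99.9 to 120, with *Vamp2* and *Syn2* as the main part of the Baseline sum.

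Of the 5 members of transmitter synthesis and loading, 4 were close to absent from the progenitors and *Gad1* was not. *Gad1*, the enzyme that makes most of the GABA of the cell, stood at 4.18, 4.46 and 3.13 CPM in Baseline and at 7.82, 8.01 and 9.34 CPM in Sox1posGP, a log2 fold change of 1.08 (SE 0.32, adjusted p = 0.015) with no overlap. Its partner *Gad2*, which makes GABA at terminals, had 1 count in Baseline and 1 in Sox1posGP. *Slc17a6* and *Slc32a1*, the vesicular transporters VGLUT2 for glutamate and VGAT for GABA, had no count in either group. *Slc17a7*, the transporter VGLUT1, ranged from 0 to 0.298 CPM in Baseline and from 0 to 0.667 in Sox1posGP.

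In NSC and NR all 5 of these genes had counts in every library. *Slc17a6* stood at 3.69, 0.76 and 4.66 CPM in NSC and at 1.11, 0.484 and 2.5 CPM in NR, which was at least 30.6-fold and at least 14.1-fold higher than in Baseline when set against 3 counts over the group (adjusted p of the edgeR fit 0.00201 and 0.00842). Replicate 2 was the lowest library of both groups. It also had the lowest sum of mesenchyme and neural crest markers in both, 426 CPM in NSC and 494 in NR. That sum was 1150 and 1148 CPM in the other NSC libraries and 3086 and 2213 in the other NR libraries. The pluripotent markers were lowest there too, 46.5 CPM against 144 and 128 in NSC and 1408 against 2694 and 2029 in NR. Whether this bears on *Slc17a6* was not tested. *Gad2* ranged from 0.863 to 3.5 CPM in NSC and from 0.71 to 2 in NR, ratios of 75.8 (13.5 to 3004) and 41.3 (7.26 to 1643) to the single Baseline count (adjusted p = 0.000251 and 0.00133). *Slc17a7* stood at 0.298, 0.279 and 0 CPM in Baseline, at 1.61, 0.725 and 1.86 CPM in NSC and at 3.14, 1.94 and 3.71 CPM in NR, with log2 fold changes of 2.54 (SE 0.64, adjusted p = 0.00285) and 3.59 (SE 0.62, adjusted p = 0.000121). *Gad1* moved the other way, to 2.46, 1.07 and 2.41 CPM in NSC and 2.59, 2.35 and 1.74 CPM in NR, with log2 fold changes of -0.99 (adjusted p = 0.00985, lost at 0.107 after thinning to the smallest total) and -0.85 (adjusted p = 0.0231). *Slc32a1* reached 0.701 CPM at most in NSC and 0.506 in NR, at least 3.6-fold and at least 3-fold over Baseline without a test.

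The neurexin members separated the groups in another way. *Nrxn2* (chr19:6418731-6544169) stood at 5.07, 6.84 and 8.14 CPM in Baseline and at 15.9, 16.2 and 14.8 CPM in Sox1posGP, a log2 fold change of 1.27 (SE 0.28, adjusted p = 0.00268). Its level in NSC (6.71, 3.56 and 6.52 CPM) and in NR (5.91, 4.26 and 6.91 CPM) overlapped with Baseline, with adjusted p of 0.493 and 0.536. *Nrxn3* stood at 0.0597, 0.419 and 0.626 CPM in Baseline and at 0.869, 0.314 and 0 CPM in Sox1posGP, which overlapped. It stood at 4.14, 2.11 and 5.33 CPM in NSC and at 1.6, 2.26 and 3.65 CPM in NR, with log2 fold changes of 3.85 (SE 0.71, adjusted p = 0.000243) and 3.25 (SE 0.73, adjusted p = 0.00109), or 2.90 and 2.30 without Baseline replicate 1.

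On the postsynaptic side, AMPA receptor subunits differed most in which subunit was present. AMPA receptors are tetramers of GluA1 to GluA4, encoded by *Gria1* to *Gria4*. *Gria4* ranged from 50.2 to 56.9 CPM in Baseline and from 43.5 to 51.8 in Sox1posGP, a log2 fold change of -0.18 (adjusted p = 0.536), against 8.01 to 9.22 in NSC and 2.89 to 7.23 in NR, with log2 fold changes of -2.60 (SE 0.22, adjusted p = 1.05e-07) and -3.32 (SE 0.23, adjusted p = 1.33e-08). *Gria3* stood at 0.477, 0.837 and 0.417 CPM in Baseline and at 0, 0 and 0.667 CPM in Sox1posGP. It stood at 33.6, 35.6 and 31.5 CPM in NSC and at 28.3, 29.3 and 26.6 CPM in NR, with log2 fold changes of 5.88 (SE 0.31, adjusted p = 1.35e-09) and 5.62 (SE 0.31, adjusted p = 1.99e-09). Of the AMPA subunit level summed per kilobase, *Gria4* was thus 93.8% in Baseline (SD 0.4, n = 3) and 96.6% in Sox1posGP (SD 1.04), and *Gria3* was 66.6% in NSC (SD 4.47) and 69.7% in NR (SD 5.04).

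*Gria2*, whose subunit makes the AMPA channel nearly impermeable to calcium and whose promoter held the exact RE1 match, was a small part of the sum in every group. *Gria2* (chr3:80681450-80802835, minus strand) stood at 7.16, 7.39 and 8.56 CPM in Baseline and at 4.92, 2.51 and 4 CPM in Sox1posGP, a log2 fold change of -1.04 (SE 0.47, adjusted p = 0.0957) with no overlap. This call was lost in 10 of 20 alternatives, among them the omission of any Baseline or Sox1posGP replicate or of NSC replicate 1, with adjusted p between 0.000795 and 0.293. It stood at 4.97, 2.11 and 5.82 CPM in NSC and at 1.29, 3.29 and 4.36 CPM in NR, with log2 fold changes of -0.82 (adjusted p = 0.0807) and -1.32 (adjusted p = 0.0102), the former lost in 7 of 20 alternatives, among them the omission of NSC replicate 2, any Baseline replicate or Sox1posGP replicate 3, with adjusted p between 0.0196 and 0.218. Per kilobase it was 5.52% of the AMPA sum in Baseline (SD 0.605), 3.14% in Sox1posGP (SD 0.749), 5.4% in NSC (SD 2.44) and 4.63% in NR (SD 2.36). *Gria1* had 1 count in Baseline and 0 in Sox1posGP. It stood at 0.246, 0.138 and 0.335 CPM in NSC and at 2.34, 0.581 and 1.35 CPM in NR, ratios of 7.01 (1.15 to 288) and 36.1 (6.33 to 1438) to the single Baseline count, and the call in NSC (adjusted p = 0.0775) was lost in 5 of 16 alternatives, the omission of NSC replicate 1 or 3 or of any Baseline replicate, with adjusted p up to 0.166.

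**Figure D4:**
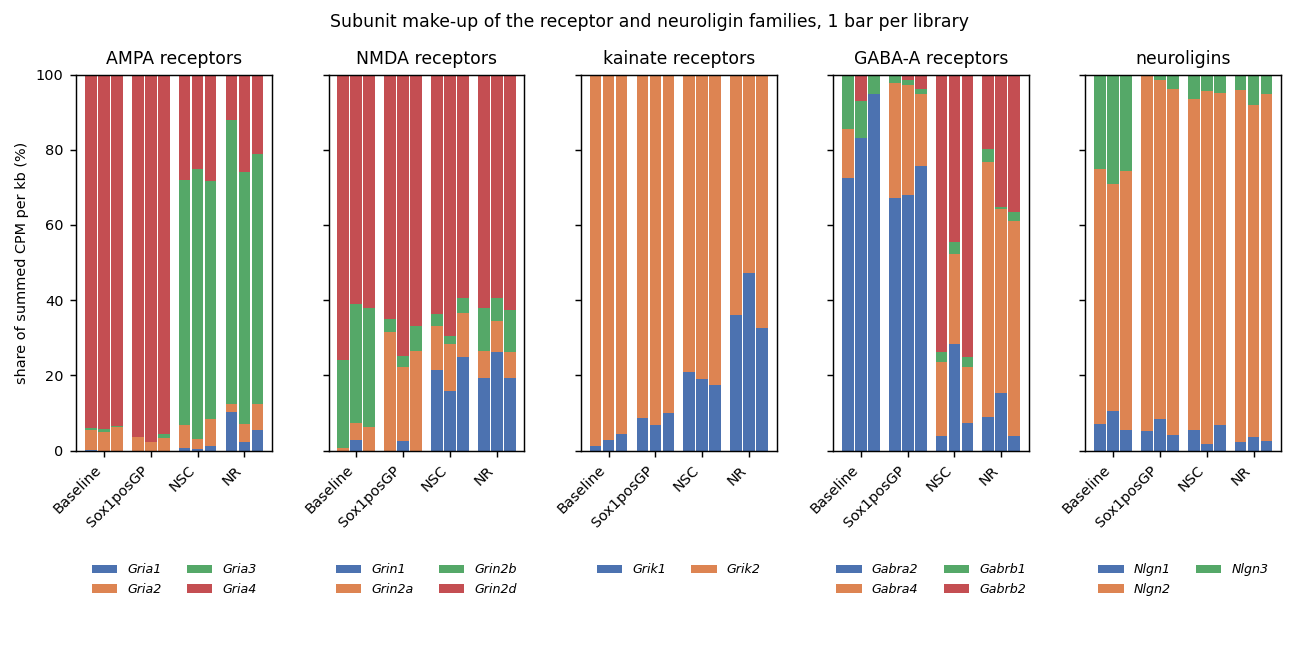
Share (%) of each subunit or family member in the summed CPM per kilobase of exon of the members measured, with 1 bar per library, 3 per group, for the AMPA, NMDA, kainate and GABA-A receptors and the neuroligins. *Gria4* fills the AMPA bars of Baseline and Sox1posGP and *Gria3* most of those of NSC and NR, and in Sox1posGP the shares of *Grin2b* and *Nlgn3* shrink beside those of *Grin2a* and *Nlgn2*.

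NMDA receptors need the obligate subunit GluN1, encoded by *Grin1*, with GluN2 subunits that set their kinetics. In Sox1posGP the GluN2 genes moved apart. *Grin2a* stood at 0.0597, 0.419 and 0.626 CPM in Baseline and at 3.76, 2.36 and 2.5 CPM in Sox1posGP, a log2 fold change of 3.37 (SE 0.54, adjusted p = 0.000218), or 2.48 without Baseline replicate 1. *Grin2b* stood at 3.1, 4.05 and 4.38 CPM in Baseline and at 0.579, 0.471 and 0.834 CPM in Sox1posGP, a log2 fold change of -2.56 (SE 0.45, adjusted p = 0.000488). The groups did not overlap for either gene, and neither call was lost in any alternative. Of the NMDA sum per kilobase *Grin2a* went from 3.81% (SD 2.89) to 26% (SD 5.81) and *Grin2b* from 29% (SD 4.72) to 4.25% (SD 1.89), a description without a test of the shares. Of these 4 genes *Grin2d*, a subunit of young neurons and interneurons, was the main part in all groups, between 61.5% and 69% on average, and ranged from 2.09 to 2.69 CPM in Baseline and from 2.34 to 3.3 in Sox1posGP. *Grin3a*, an NMDA receptor subunit gene of the wider list that is not in this sum, stood above it per kilobase in the progenitors, at 1.13 CPM (SD 0.145) in Baseline and 2.72 (SD 0.511) in Sox1posGP against 0.354 (SD 0.0452) and 0.427 (SD 0.0726) for *Grin2d*. *Grin3a* was higher in Sox1posGP (log2 fold change 1.27, adjusted p = 0.00119) and lower in NSC and NR (-3.43 and -4.17) than in Baseline.

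*Grin1* itself was at the edge of detection in the progenitors, with 1 count in Baseline and 1 in Sox1posGP. It stood at 1.19, 0.794 and 1.34 CPM in NSC and at 1.42, 1.87 and 1.55 CPM in NR, ratios of 32.4 (5.7 to 1289, adjusted p = 7.66e-05) and 47.2 (8.32 to 1876, adjusted p = 1.76e-05) to Baseline. *Grin2a* was higher than in Baseline in NSC (1.21, 1.14 and 1.16 CPM) and in NR (0.985, 1.1 and 1.01 CPM), with log2 fold changes of 2.12 and 1.94, or 1.18 and 1.00 without Baseline replicate 1. *Grin2b* was lower in NSC (0.447, 0.276 and 0.518 CPM) and in NR (2.16, 1.13 and 2.3 CPM), with log2 fold changes of -3.15 (adjusted p = 2.52e-06) and -1.02 (adjusted p = 0.0108), the latter -0.64 and lost after thinning (adjusted p = 0.213). For *Grin2b*, NSC libraries lay below all NR libraries.

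The kainate receptor members *Grik1* and *Grik2* rose in Sox1posGP, whereas *Grik3*, *Grik4* and *Grik5* of the wider list did not pass (adjusted p = 0.18, 0.736 and 0.543), with *Grik5* the most abundant at 33.4 to 38.5 CPM in Baseline. *Grik2*, which encodes GluK2, stood at 10.2, 9.63 and 8.77 CPM in Baseline and at 18.2, 21 and 20.5 CPM in Sox1posGP, a log2 fold change of 1.06 (SE 0.21, adjusted p = 0.00119). *Grik1*, which encodes GluK1, stood at 0.0597, 0.14 and 0.209 CPM in Baseline, 3 counts in all, and at 0.869, 0.785 and 1.17 CPM in Sox1posGP, a ratio of 9.08 (2.57 to 48.9, adjusted p = 0.0068). In NSC and NR *Grik1* and *Grik2* moved apart. *Grik2* fell to 4.47, 3.76 and 5.36 CPM in NSC and to 1.72, 2.9 and 1.94 CPM in NR, with log2 fold changes of -1.08 (adjusted p = 0.000323) and -2.11 (adjusted p = 9.1e-07). *Grik1* stood at 0.604, 0.449 and 0.579 CPM in NSC and at 0.493, 1.32 and 0.478 CPM in NR, ratios of 5.3 (1.73 to 26.5) and 7.63 (2.5 to 37.9) to Baseline, and the call in NSC (adjusted p = 0.0105) was lost without Baseline replicate 1 (adjusted p = 0.119).

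The GABA-A receptor genes held the largest rise among the members in Sox1posGP, that of *Gabra4*. These receptors are chloride channels of alpha, beta and other subunits, and *Gabra2* (chr5:70957597-71095849), *Gabra4* (chr5:71569749-71658308) and *Gabrb1* (chr5:71658113-72149037) lie in 1 cluster. *Gabra2* stood at 1.67, 1.95 and 2.09 CPM in Baseline and at 9.55, 9.11 and 11.7 CPM in Sox1posGP, a log2 fold change of 2.44 (SE 0.45, adjusted p = 0.000733). *Gabra4* stood at 0.239, 0 and 0 CPM in Baseline and at 3.47, 3.14 and 2.34 CPM in Sox1posGP, a log2 fold change of 4.40 (SE 0.65, adjusted p = 0.000115) that rests on 4 Baseline counts, all in replicate 1. It was at lowest 3.96 over the alternatives, and without that library no Baseline count is left and the fitted sizes (8.90 in Sox1posGP, 7.41 in NSC and 8.32 in NR) depend on the prior count. *Gabrb1*, head to head with *Gabra4* and sharing 46 exon bases with it, ranged from 0.209 to 0.597 CPM in Baseline and from 0.314 to 0.579 in Sox1posGP and was not tested. Thus of 3 cluster members the 2 alpha genes rose.

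The stretches before the starts of *Gabra2* and *Gabra4* are shown because these genes moved together in Sox1posGP, with the hexamer CCGCCC, a core of GC boxes, in capitals on either strand (GGGCGG on the opposite one). They come from RefSeq on GRCm38.p6, and the *Gabra4* stretch is trimmed to bases outside annotated exons.
Gabra2 (chr5:71095850-71096099, minus strand): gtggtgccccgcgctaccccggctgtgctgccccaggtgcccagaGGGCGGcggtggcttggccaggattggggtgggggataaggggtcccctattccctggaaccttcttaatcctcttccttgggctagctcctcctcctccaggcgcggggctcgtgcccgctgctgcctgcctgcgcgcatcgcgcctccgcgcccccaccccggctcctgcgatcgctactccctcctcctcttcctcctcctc
Gabra4 (chr5:71658364-71658558, minus strand): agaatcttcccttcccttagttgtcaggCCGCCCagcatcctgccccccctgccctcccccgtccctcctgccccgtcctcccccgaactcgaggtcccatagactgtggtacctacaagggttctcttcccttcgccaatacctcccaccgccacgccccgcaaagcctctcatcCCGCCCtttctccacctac
The hexamer lay in 13 of the 39 member windows and in 32.7% of all windows. Neither window of 250 bases held AACAAT or the RE1 consensus within 1 mismatch, which says only that those letters are not in these bases.

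In NSC and NR the alpha genes moved apart and *Gabrb2*, a beta subunit gene outside the cluster, rose. *Gabra2* stood at 0.313, 1.42 and 0.61 CPM in NSC and at 0.431, 0.452 and 0.197 CPM in NR, with log2 fold changes of -1.30 (adjusted p = 0.0237) and -2.41 (adjusted p = 0.000843). The value in NSC was -2.03 without NSC replicate 2 and -0.80 after thinning, where the call was lost (adjusted p = 0.316). *Gabra4* stood at 1.25, 0.967 and 0.975 CPM in NSC and at 2.65, 1.16 and 2.36 CPM in NR, with log2 fold changes of 2.95 and 3.87, at lowest 2.51 and 3.38 over the alternatives. *Gabrb2* had 1 count in Baseline and stood at 0, 0.157 and 0.5 CPM in Sox1posGP. It stood at 4.94, 1.86 and 5.15 CPM in NSC and at 0.8, 0.871 and 1.57 CPM in NR, ratios of 120 (21.4 to 4741) and 33.3 (5.83 to 1328) to Baseline. Per kilobase *Gabra2* was 83.5% of the 4 GABA-A genes in Baseline (SD 11.1) and 70.3% in Sox1posGP (SD 4.83), *Gabrb2* 64.6% in NSC (SD 17.3) and *Gabra4* 58.1% in NR (SD 9.52), so among these 4 a different gene led in each of NSC and NR.

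Among the neuroligins, *Nlgn3* fell more than any other called member in Sox1posGP. *Nlgn3* (chrX:101299168-101325963) stood at 8.41, 7.12 and 8.77 CPM in Baseline and at 0, 0.471 and 1.17 CPM in Sox1posGP, a log2 fold change of -3.69 (SE 0.48, adjusted p = 3.8e-05), which no alternative lost and which was -4.73 without Sox1posGP replicate 3. It shares 41.2% of its exon bases with *Gm21986* on its own strand, and no library gave more than 16 counts to that transcript. In NSC it stood at 1.1, 0.691 and 0.792 CPM and in NR at 0.677, 1.1 and 0.955 CPM, with log2 fold changes of -3.21 (adjusted p = 2.34e-06) and -3.11 (adjusted p = 3.24e-06). All 9 libraries outside Baseline thus lay below every Baseline library. *Nlgn2*, the neuroligin of inhibitory synapses, stood at 14.2, 9.21 and 14.6 CPM in Baseline and at 18.5, 17 and 18 CPM in Sox1posGP, a log2 fold change of 0.49 (SE 0.19, adjusted p = 0.0582) lost in 5 of 20 alternatives, among them the omission of Baseline replicate 2 or Sox1posGP replicate 1 or 3, with adjusted p up to 0.249. *Nlgn2* was lower in NSC (8.9 to 9.15 CPM, log2 fold change -0.49) and in NR (7.58 to 10.5 CPM, log2 fold change -0.44), each lost in 4 of 20 alternatives, among them the omission of Baseline replicate 1 or 3 and, in NR, of NR replicate 2, with adjusted p up to 0.157. *Nlgn1*, found mainly at excitatory synapses, ranged from 2.71 to 3.77 CPM in Baseline and from 1.83 to 3.61 in Sox1posGP, and it was lower in NSC and NR by log2 fold changes of -1.58 and -2.34. The share of *Nlgn3* in the neuroligin sum per kilobase was 26.6% in Baseline (SD 2.14), 1.76% in Sox1posGP (SD 1.87), 5.31% in NSC (SD 1.11) and 5.73% in NR (SD 2.04).

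In NSC and NR the scaffold gene *Dlg4* was lower and *Shank1* and *Shank2* were higher than in Baseline, whereas in the wider list *Dlg3* was higher by 2.51 and 2.12 and *Shank3* was at -0.13 in NSC, which did not pass, and lower by -0.54 in NR, on the log2 scale. *Dlg4*, which encodes PSD-95, ranged from 15.9 to 17.9 CPM in Baseline, 12.7 to 14.8 in Sox1posGP, 5.61 to 6.33 in NSC and 4.68 to 5.2 in NR. Its log2 fold change was -0.30 in Sox1posGP (SE 0.15, adjusted p = 0.124), which did not pass, -1.50 in NSC (adjusted p = 3.83e-07) and -1.74 in NR (adjusted p = 9.17e-08). *Shank1* stood at 0.298, 0.14 and 0.417 CPM in Baseline, at 0.869, 0.942 and 0.834 CPM in Sox1posGP, at 3.74, 3.66 and 3.41 CPM in NSC and at 1.91, 2.32 and 2.7 CPM in NR. The 4 groups of *Shank1* did not overlap with one another, and its log2 fold changes over Baseline were 1.65 (SE 0.45, adjusted p = 0.0232, lost at 0.37 when libraries were thinned to the smallest total), 3.67 (SE 0.34, adjusted p = 3.24e-07) and 3.04 (SE 0.35, adjusted p = 2.6e-06). *Shank1* shares 339 exon bases (3.22%) with *1700008O03Rik* on the opposite strand. That gene had 21, 8 and 5 counts in Baseline, against 5, 1 and 2 for *Shank1*. In NSC it had 64, 42 and 38, against 167, 106 and 112. The part of its reads in the *Shank1* counts was not tested. *Shank2* ranged from 0.209 to 0.298 CPM in Baseline and from 0.167 to 0.579 in Sox1posGP. It was higher in NSC and NR by log2 fold changes of 2.85 and 2.76. *Dlg2*, the related scaffold PSD-93, had 0 counts in Baseline and 1 in Sox1posGP and reached 0.823 CPM in NSC and 0.493 in NR, at least 5.12-fold and at least 3.93-fold over Baseline without a test.

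NR and NSC were compared directly because both are labelled as neuroepithelial cells, NR sorted and NSC not. Of the 34 members tested, 6 were higher in NR (30% of all genes tested were higher) and 11 were lower (26.6% were lower). *Syn1*, *Slc17a7*, *Gria1*, *Grin2b*, *Grin2d* and *Gabra4* were higher, and *Syn2*, *Syp*, *Syt1*, *Snap25*, *Vamp2*, *Rab3a*, *Gria4*, *Grik2*, *Gabra2*, *Gabrb2* and *Shank1* were lower. The median log2 fold change was -0.30 against 0.01 over all genes tested. In the marker lists, 8 of 10 neuron markers and 8 of 8 neural progenitor markers were lower in NR. There 6 of 6 pluripotent and 3 of 4 endothelial markers were higher, with 0 of either list lower.

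Of the 9 vesicle members, 6 were lower and 1 higher in NR. *Syp* had a log2 fold change of -1.29 (SE 0.25, adjusted p = 0.000794), *Syn2* of -1.09 (SE 0.18, adjusted p = 0.000213) and *Syt1* of -1.04 (SE 0.18, adjusted p = 0.000315). The log2 fold change was -0.66 for *Snap25*, -0.45 for *Rab3a* and -0.42 for *Vamp2*, and for *Syn1* it was 0.50 (SE 0.15, adjusted p = 0.012). The *Snap25* call (adjusted p = 0.0208) was lost after thinning (adjusted p = 0.144). The *Rab3a* call (adjusted p = 0.0452) was lost without NSC replicate 1 or 3 or NR replicate 1, with adjusted p up to 0.148. *Slc17a7* was higher by 1.05 (SE 0.40, adjusted p = 0.0438) and no NR library overlapped with NSC, but the call was lost without NSC replicate 2 or NR replicate 3, with adjusted p up to 0.177. *Slc17a6* and *Gad2* had log2 fold changes of -1.13 (adjusted p = 0.193) and -0.82 (adjusted p = 0.203). With the replicate number as a block these were lower, with a log2 fold change of -1.11 (adjusted p = 0.00955) and -0.73 (adjusted p = 0.0501), and without NSC replicate 2 they were -1.59 (adjusted p = 0.0267) and -1.23 (adjusted p = 0.0224).

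On the postsynaptic side, *Gria1* and *Grin2b* rose in NR by the most, with log2 fold changes of 2.46 (SE 0.52, adjusted p = 0.00213) and 2.13 (SE 0.34, adjusted p = 0.000217). *Gabra4* was higher by 0.92 (adjusted p = 0.0512), a call lost without NSC replicate 3 or NR replicate 1 or 3, with adjusted p up to 0.171. *Grin2d* was higher by 0.45 (adjusted p = 0.087), a call lost in 13 of 21 alternatives, with an adjusted p of 0.171 when the block was fitted to NSC and NR alone. *Gabrb2* was lower with a log2 fold change of -1.85 (SE 0.44, adjusted p = 0.00314), *Grik2* with -1.03, *Gria4* with -0.72 and *Shank1* with -0.63. The *Shank1* call was lost without NR replicate 1 and after thinning, with adjusted p up to 0.56, and the *Gria4* call after thinning (log2 fold change -0.46, adjusted p = 0.204). *Gabra2* was lower with a log2 fold change of -1.11 (adjusted p = 0.0809), a call lost in 5 of 21 alternatives, among them the omission of NSC replicate 2 or NR replicate 1 or 3, with adjusted p up to 0.462. Over the alternatives the *Gabra2* value lay between -1.57 and -0.39. *Gria3* did not pass, with a log2 fold change of -0.26 (adjusted p = 0.278), but was lower with the block fitted to NSC and NR alone (log2 fold change -0.30, adjusted p = 0.0657). Summed over the class, the AMPA genes held 45.9 to 48.1 CPM in NSC and 34.8 to 40.4 in NR, and the NMDA genes 4.59 to 5.26 CPM in NSC and 7.03 to 8.32 in NR, with no overlap in either sum.

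A wider list of 74 other synaptic genes, of which 65 could be tested, was read in the same fit. In Sox1posGP 25 were higher and 10 lower than in Baseline (21.6% and 22.7% of all genes tested), with a median log2 fold change of 0.42 against 0.00 over all genes tested. The highest were *Gabra5*, an alpha subunit gene with no count in Baseline and 1.45, 0.314 and 1.17 CPM in Sox1posGP, and *Pclo*, which encodes the active zone protein Piccolo, with a log2 fold change of 3.77 (adjusted p = 1.51e-05). The lowest were *Lrrc4* and *Lrrtm4*, postsynaptic adhesion genes, with log2 fold changes of -2.36 (adjusted p = 1.23e-05) and -2.31 (adjusted p = 0.00397). In NSC 36 were higher and 16 lower than in Baseline (44.4% and 33.7% of all genes tested), and in NR 34 were higher and 23 lower (45.6% and 34.1%). In NR against NSC 7 were higher and 35 lower (30% and 26.6%), with a median of -0.54 against 0.01.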

How the data were processed

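RNA of 12 mouse libraries, 3 in each of 4 groups, was prepared by the authors with PicoPure columns and SMART-Seq v4 amplification, and groups and replicate numbers came from the sample titles. The authors deposited reads per gene as raw counts without normalization, and all 12 columns of 45706 Ensembl genes were used. The submitters' processing notes list STAR 2.6, RSEM 1.1.14 and mm10 without their roles, and the strand setting is not given in the sources used here. Symbols (45143 genes matched) and exon lengths came from GENCODE vM21. The share of counts on genes that lack a symbol was 0.124%. The members, lists and tests were chosen with earlier results of these data known.

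Counts were scaled by TMM, filtered by filterByExpr and tested with edgeR 4.0.16 (glmQLFit, glmQLFTest) under R 4.3.3 over all 12 libraries without a block, with Benjamini-Hochberg adjustment over 17003 genes and a call at an adjusted p under 0.1. The test was run on simulated data first. A gene with no count in a group was set against 3 counts over the group for a lower bound, and with 1 to 3 counts a ratio with its exact interval is given, which covers counting error only. Every member was named. CPM per library is given for members called in Sox1posGP and, in each class, for the largest called change of each other comparison. At most 2 rises and 2 falls were named where the wider list was read as a whole. Other genes of that list were named beside members of their class or gene cluster. Replicates were separate cultures made on different days, and no 2 agreed within sampling noise.

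Deviations of same-numbered NSC and NR libraries from their group means correlated at 0.229, 0.49 and 0.296 across genes. This is a hint of pairs from the data, since no label says so. Only the fits with the replicate number as a block took these numbers as pairs, and the main test did not. Alternatives were DESeq2 1.42.0, scaling by its size factors or by the upper quartile, other thresholds and filters, fits of the compared groups alone, thinning to 3407066 counts, the block and the omission of each replicate. A block fitted to NSC and NR alone was added after seeing the data. Lost calls are counted over the 20 alternatives (21 in NR against NSC) that keep the threshold, or as many as could test the gene. Tables and figures used Python 3.11.15, pandas 2.3.3 and matplotlib 3.10.9.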

Additional observations from a re-analysis of the deposited data

How the results depend on the processing

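No call of a member reversed its direction in any alternative. Of the calls, 12 of 16 in Sox1posGP, 26 of 32 in NSC and 30 of 32 in NR against Baseline, and 9 of 17 in NR against NSC, held in every alternative fit, scaling, filter, thinning and omitted replicate that tested them at the same threshold. With a fold over 4 required as well, 4 members were higher and 2 lower in Sox1posGP (3.87% and 1.92% of all genes tested), 16 higher and 4 lower in NSC (19.5% and 5.9%) and 15 higher and 7 lower in NR (22% and 6.03%) than in Baseline, and 2 were higher and 0 lower in NR than in NSC (7.34% and 0.124%). With every library thinned to the smallest total, 27 members could be tested, and 8 were higher and 4 lower in Sox1posGP (23.7% and 23.8% of the 13276 genes tested), 11 and 11 in NSC (41.2% and 36.5%) and 11 and 14 in NR (41.9% and 37%), and 3 were higher and 6 lower in NR than in NSC (27.2% and 25.3%). Leaving out 1 replicate at a time gave 10 to 13 higher and 3 to 4 lower in Sox1posGP, 17 to 19 and 12 to 14 in NSC, 18 to 19 and 13 to 14 in NR, and in NR against NSC 2 to 6 higher, with 2 without NR replicate 3, and 8 to 15 lower. The cause was not tested beyond the fewer genes or samples that these settings leave. With the replicate block the counts in NR against NSC were 6 higher and 13 lower, or 5 and 14 in a fit of those groups alone, against 6 and 11, and no count against Baseline changed, although in Sox1posGP *Stx1a* was lost (adjusted p = 0.148) and *Rab3a* gained (adjusted p = 0.0988). In the comparisons with Baseline same-numbered libraries correlated within 0.05 of 0, so those libraries share only a number, and the block gave 12 and 4 in Sox1posGP and 18 and 14 in each of NSC and NR. The shallow libraries of Sox1posGP limit what can be said of members under its floor of 0.19 CPM.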

Other observations

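The chr5 cluster that holds *Gabra2* and *Gabra4* also holds *Gabrg1*, which encodes a gamma subunit and was looked at after its values were seen. *Gabrg1* (chr5:70751047-70842617) stood at 96.2, 81.1 and 79.3 CPM in Baseline and at 55.3, 59 and 45.4 CPM in Sox1posGP, a log2 fold change of -0.69 (SE 0.14, edgeR adjusted p = 0.00141). It was between 0.671 and 1.17 CPM in all NSC and NR libraries. Within this cluster, therefore, the gamma gene fell in Sox1posGP where the alpha genes rose.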
